A study of Mus musculus with 12 samples.

Results

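Basal epidermal cells that kept a histone label were compared with basal cells that had lost it, across all measured genes. The comparison used the 3 arrays titled as sorted epidermal BL LRCs and the 3 titled as BL non-LRCs, 6 of the 12 arrays of the series, and took in all 18193 genes that a single-gene probe set represents. BL is read as basal layer and LRC as label-retaining cell from what is known of the study. Every group came from mice with 4 transgenes: K5-tTA, a transactivator driven by the keratin 5 promoter, pTRE-H2B-GFP, the histone label it switches on, K14-CreER, a tamoxifen-dependent recombinase driven by the keratin 14 promoter, and the Rosa-tdTomato reporter. All mice were fed doxycycline at 1 g per kg of food for 2 weeks, which represses the label, and received a single injection of tamoxifen at 75 mg per kg. Tissue was taken 1 week after the injection, at second telogen, a resting phase of the hair cycle. The other 6 arrays are 2 each of SL LRC, of SL non-LRC and of GL, where SL and GL are read as spinous and granular layer. For the sorting gates and the ages of the mice, the sources used here give nothing. Nothing in the labels says that the samples came from separate mice. A p-value here therefore reflects the spread among these arrays alone, part of which may be technical.

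The basal layer of the epidermis holds the dividing keratinocytes that attach to the basement membrane, and cells leaving it switch from keratins 5 and 14 to keratins 1 and 10. Once the H2B-GFP gene is repressed, each division dilutes the label, so cells that keep it are those that have divided least. Hair follicle and sebaceous gland keratinocytes also express keratins 5 and 14, and the basal fractions were therefore set against markers of those compartments as well as of other skin cell types.

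The 6 basal arrays were scaled alike, and 68.1% to 76.8% of genes lay above each array's background, taken from bacterial probe sets. The arrays fell into 2 sets by the signal of the BioB control, 467 and 517 units on BL LRC 1 and BL non-LRC 1 and 3137 to 3931 on the other 4 basal arrays. The same pair lacked Y-linked signal: Eif2s3y read 17.1, 2298 and 2085 units on BL LRC 1 to 3 and 5, 1791 and 1957 on BL non-LRC 1 to 3. Array 1 of each fraction thus had another source than arrays 2 and 3. In the basal arrays the sex of the source and the BioB set cannot be told apart. Each set held both fractions, so it could be fitted as a term, which left 55 of the 56 higher and 221 of the 223 lower calls described next. The 3 prime minus 5 prime log2 difference of Actb lay between -0.22 and -0.18 in BL LRC and between -0.33 and -0.13 in BL non-LRC. The defining keratinocyte markers Krt5 (0.24 ± 0.13 log2 units, BL LRC minus BL non-LRC, adjusted p = 0.521), Krt14 (0.10 ± 0.10, adjusted p = 0.8), Krt15 (0.18 ± 0.13), Trp63 (0.27 ± 0.14) and Itga6 (0.01 ± 0.13) were high on all 6 arrays and passed no test, with signs that turned under other scaling for all but Trp63.

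Of 18193 genes, 56 were higher in BL LRC (0.308%) and 223 lower (1.23%) at a limma adjusted p under 0.05. An unadjusted p under 0.05 in the same fit was reached by 2026 genes (11.1%). The higher genes had a median of 2.60-fold and the lower ones of 4.53-fold. In these 279 genes, 1.53% of all, the 3 values of each fraction did not overlap, a property that 16.4% of all genes shared. Centring the arrays on the median of all probe sets lowers every difference by about 0.24 log2 units. It left 22 genes higher and 424 lower, so that the share of lower calls went from 79.9% to 95.1%. All 223 lower calls and 22 of the 56 higher calls held under that centring. Leaving out 1 array at a time, 101 lower calls held in all 6 fits, against 5 higher calls, namely Grtp1, Pfkfb3, Ccr4, Aknad1 and Tjp3. Aknad1 was chosen after its values were seen. BL non-LRC 3 had the highest value of the 6 arrays for 176 of the 223 lower genes, and without it 123 of the 279 calls held.

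**Figure D1:**
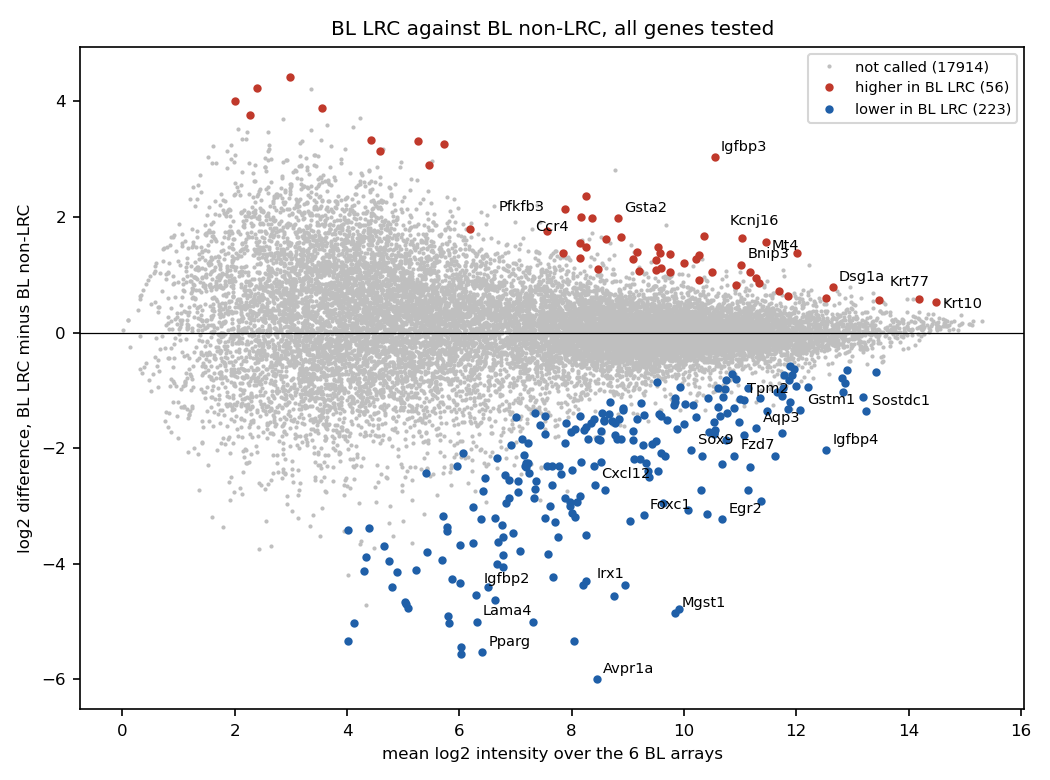
Log2 difference (BL LRC minus BL non-LRC, vertical axis) against mean log2 intensity over the 6 basal arrays (horizontal axis) for 18193 genes. Red points are the 56 genes called higher and blue points the 223 called lower; the lower genes reach larger differences than the higher ones, down to -5.99 for Avpr1a, of which 1 BL LRC value lay under background.

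Early differentiation genes gave more of the higher calls than any other list. Of 22 measured genes of the spinous list, 7 rose (Krt10, Krt77, Krt78, Dsg1a, Dsg1b, Mt4 and Them5) and 1 fell (Calml3), with a median of 0.45 over the list beside 0.046 over all genes. Krt10, the keratin that replaces keratin 14 as cells leave the basal layer, read 27335, 26712 and 28834 units on the BL LRC arrays and 18332, 21661 and 17805 on the BL non-LRC arrays. All 3 BL LRC values lay above all 3 BL non-LRC values, and Krt10 rose by 0.52 ± 0.11 on the log2 scale (± SE, 3 arrays against 3, adjusted p = 0.0214). Krt77, a keratin of differentiating and sweat duct epithelium, read 22803, 21617 and 23828 against 15307, 16596 and 13734 units and rose by 0.58 ± 0.11 (adjusted p = 0.00926). Its lowest BL LRC array was still above the highest BL non-LRC array. Mt4, the metallothionein of stratified epithelium, read 3493, 4738 and 6903 against 1174, 2179 and 1704 units and rose by 1.57 ± 0.36 (adjusted p = 0.0359). Krt1, the partner of Krt10, read 17001, 19560.5 and 23288 against 12291, 15604 and 12067 units, 0.58 ± 0.16 log2 units with an adjusted p of 0.101, so it did not pass although its values did not overlap.

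Of 32 measured genes of desmosomes, adherens and tight junctions, 3 rose (Dsg1a, Dsg1b and Tjp3) and 1 fell (Cldn8), and the list median was 0.12 (-0.13 when centred). Dsg1a, an adhesion protein of suprabasal desmosomes, read 7033, 8484 and 10194 units in BL LRC and 4429.8, 5272 and 5025 in BL non-LRC and rose by 0.79 ± 0.17 (adjusted p = 0.0192). Its close paralogue Dsg1b rose by 1.08 ± 0.25 (adjusted p = 0.0381), and probes of this pair may share transcripts. Tjp3, a scaffold protein of tight junctions, read 839, 872 and 842 against 436, 349 and 444 units. It rose by 1.06 ± 0.20 (adjusted p = 0.0103) and kept its call without any single array, although with a highest adjusted p of 0.049, but lost it when centred (0.0855). Cldn8, a claudin of tight junctions, read 94.5, 62.4 and 53.8 against 206, 233 and 535 units and fell by 2.11 ± 0.42 (adjusted p = 0.0144, lost without BL LRC 2, BL LRC 3 or BL non-LRC 3, 0.11). Calml3, a calmodulin-like protein of differentiating keratinocytes and a member of the spinous list, fell by 1.91 ± 0.37 (adjusted p = 0.0119, lost without BL LRC 3 or BL non-LRC 3, 0.077). The cornified envelope and granular list, the genes of the last steps of the pathway, had 1 of 36 members higher, Nccrp1, which was at least 1.62-fold higher with an adjusted p of 0.0498 that rose to 0.0556 with the array-set term, 0.0517 when centred, 0.0602 with all probe sets averaged and 0.179 at most without 1 array, lost in all 6 such fits. Loricrin, coded by Lor, read 217, 710.2 and 324 and 208, 426 and 177 units, and these values overlapped. The median over the 36 members was nonetheless 0.55 (0.31 when centred), above that of the spinous list. Of them 27 lay above 0, beside 9813 of 18193 over all genes, so the few calls do not show that late genes stayed level.

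The differentiation calls depended on scaling and on single arrays. Centred on the median of all probe sets, the 7 higher spinous genes kept their direction and had adjusted p-values of 0.0899 for Mt4 to 0.428 for Krt10, and the list median was 0.21. Krt10, Dsg1a and Mt4 also lost their calls without BL LRC 2, BL LRC 3, BL non-LRC 1 or BL non-LRC 3 (highest adjusted p = 0.197), and Krt77 without BL LRC 3 or BL non-LRC 3 (0.0602). Krt78, Dsg1b and Them5 lost theirs in 6, 5 and 4 of the 6 fits (0.261, 0.164 and 0.224). Averaging all probe sets of a gene left Mt4 at an adjusted p of 0.0631 and Them5 at 0.735. The 6 suprabasal markers include Krt10, Krt1 and Dsg1a. Their summed intensity was 51708 to 62867 units in BL LRC and 35326 to 43093 in BL non-LRC. Krt10, Krt1 and Dsg1a, described above, make up most of this sum, which is therefore no separate result. In a bulk fraction, more cells of a type and more RNA per cell cannot be told apart.

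**Figure D2:**
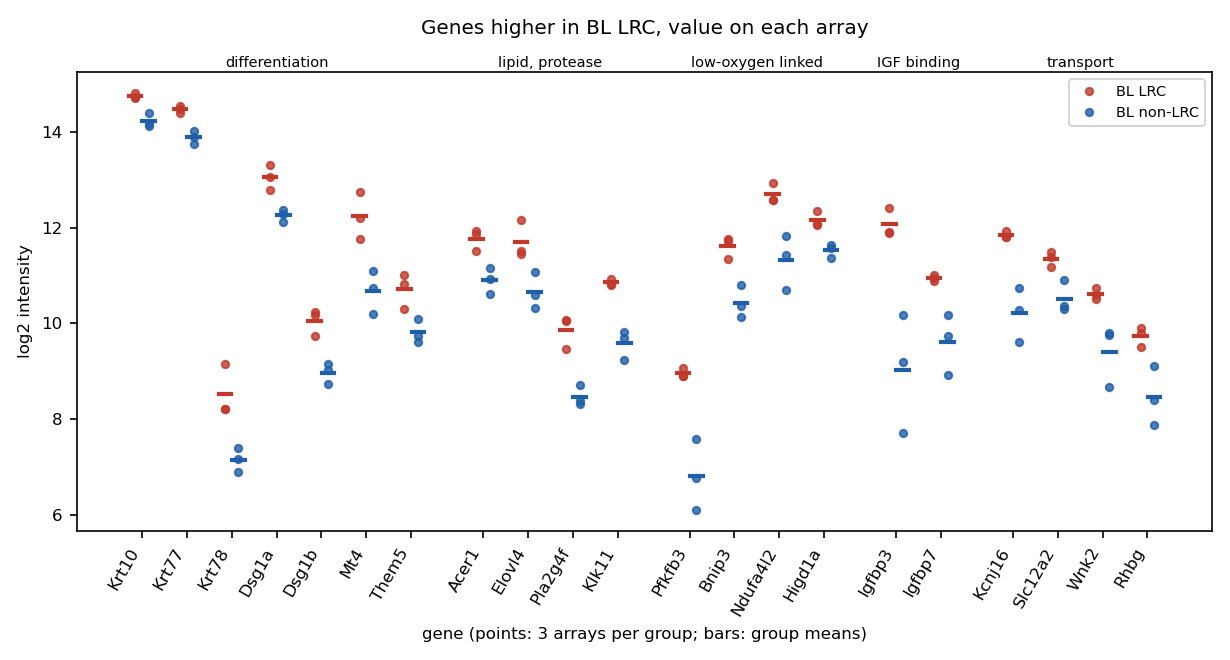
Log2 intensity on each of the 3 BL LRC (red) and 3 BL non-LRC (blue) arrays for genes called higher in BL LRC, grouped by role; short bars are group means. In every gene shown the red points lie above the blue ones, and in Igfbp3, Pfkfb3 and Igfbp7 the blue points spread more widely than the red.

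Genes of epidermal barrier lipids rose as single members of lists in which other members fell. Acer1, the alkaline ceramidase of the upper epidermis, read 3878, 2905 and 3715 against 1576, 1943 and 2271 units and rose by 0.86 ± 0.16 (adjusted p = 0.0107). Elovl4, which makes the very long chain fatty acids of barrier ceramides, read 2810.5, 2935 and 4552 against 1552, 2149.7 and 1278 units and rose by 1.05 ± 0.22 (adjusted p = 0.0173). Neither gene overlapped between fractions, as was so for every called gene. Elovl6, which elongates shorter chains, fell by 3.14 ± 0.47 (adjusted p = 0.00129), and without BL non-LRC 3 it fell by 2.41. Cers4, a ceramide synthase, read 98.8, 7.99 and 91.1 against 1344, 842 and 4167 units and fell by 5.33 ± 0.86 (adjusted p = 0.00271). BL LRC 2 lay under its background floor for Cers4, which differed by -4.14 without that array, by -5.96 without BL LRC 1, by -4.68 without BL non-LRC 3 and by -4.71 with values raised to the floor. Of the 33 ceramide genes measured, 1 rose and 1 fell, and of 32 fatty acid synthesis genes 1 rose and 4 fell. The ceramide list had 24 of 33 members above 0 and a median of 0.23 (-0.015 when centred). The fatty acid synthesis list had 9 of 32 above 0 and a median of -0.56 (-0.80 when centred). Over all genes 9813 of 18193 lay above 0. Pla2g4f, a phospholipase A2, read 709, 1067 and 1074 against 334, 318 and 418 units and rose by 1.40 ± 0.26 (adjusted p = 0.009, 0.044 when centred, lost without BL LRC 2 or BL LRC 3, 0.0602). Klk11, a kallikrein protease named after its values were seen, rose by 1.27 ± 0.25 (adjusted p = 0.0125, 0.049 when centred, lost without BL LRC 2, BL LRC 3 or BL non-LRC 3, 0.078). Acer1 lost its call without BL LRC 3 (0.061), when centred (0.119) and with all probe sets averaged (0.111), and so did Elovl4 without BL LRC 3 or BL non-LRC 3 (0.117) and when centred (0.12).

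Hypoxia-inducible factors switch on glycolysis and limit mitochondrial respiration when oxygen is low. Pfkfb3, whose product makes the activator of phosphofructokinase, and Bnip3, a mitophagy receptor, were the 2 of 38 members of the glycolysis and hypoxia list that rose, and none fell. The list median was 0.21, and -0.03 when centred. The 38 members include Pigq, which entered for Gpi1 through a synonym and is not a glycolysis gene. Ndufa4l2, a subunit paralogue that lowers complex I activity, and Higd1a, a respiratory supercomplex factor, are named here after their values were seen and are no test of such a programme. Hypoxia-inducible factors bind DNA around the letters ACGTG, so the promoter windows of the 3 of these 4 genes with an entry are shown, RefSeq GRCm38.p6, each 300 bases around an annotated start and printed in the direction of transcription, with ACGTG on either strand in capitals.

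Bnip3, chr7:138909457-138909756, minus strand: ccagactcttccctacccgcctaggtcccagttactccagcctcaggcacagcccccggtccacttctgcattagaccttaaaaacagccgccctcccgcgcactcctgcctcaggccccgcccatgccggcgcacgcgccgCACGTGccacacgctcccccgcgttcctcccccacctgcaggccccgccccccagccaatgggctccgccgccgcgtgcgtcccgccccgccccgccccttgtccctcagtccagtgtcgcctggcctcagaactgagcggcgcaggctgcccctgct
Higd1a, chr9:121857747-121858046, minus strand: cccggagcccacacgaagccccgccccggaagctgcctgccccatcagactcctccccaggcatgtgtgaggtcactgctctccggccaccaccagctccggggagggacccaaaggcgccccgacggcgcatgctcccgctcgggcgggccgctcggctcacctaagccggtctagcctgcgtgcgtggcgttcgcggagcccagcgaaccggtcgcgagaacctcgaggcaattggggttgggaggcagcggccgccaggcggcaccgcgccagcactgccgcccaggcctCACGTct
Pfkfb3, upstream start, chr2:11553880-11554179, minus strand: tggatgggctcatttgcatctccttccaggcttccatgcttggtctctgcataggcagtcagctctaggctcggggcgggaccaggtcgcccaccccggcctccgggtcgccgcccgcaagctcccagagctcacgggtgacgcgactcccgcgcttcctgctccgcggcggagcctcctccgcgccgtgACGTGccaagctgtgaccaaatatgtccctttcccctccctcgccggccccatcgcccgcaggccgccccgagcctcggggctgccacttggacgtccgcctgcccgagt
Pfkfb3, downstream start, chr2:11502041-11502340, minus strand: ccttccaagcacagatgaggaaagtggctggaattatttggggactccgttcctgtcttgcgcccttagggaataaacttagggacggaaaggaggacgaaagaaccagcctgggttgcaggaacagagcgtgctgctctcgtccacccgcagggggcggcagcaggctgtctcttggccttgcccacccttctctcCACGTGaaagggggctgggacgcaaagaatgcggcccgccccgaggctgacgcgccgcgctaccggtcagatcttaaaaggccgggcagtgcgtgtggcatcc

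Each of the 4 windows holds the letters, in Bnip3 and at the downstream Pfkfb3 start as a palindrome that reads on both strands. Of 32851 promoter windows of this length, 6447 (19.6%) hold ACGTG, so a match is common and is a description only. Pfkfb3 read 536, 479 and 479.9 units in BL LRC and 191, 109 and 68.8 in BL non-LRC and rose by 2.14 ± 0.38 log2 units (adjusted p = 0.00606), and its call held without any single array (highest 0.0331) and when centred (0.0125). Bnip3 read 3359, 2617 and 3481 against 1319, 1795 and 1117 units and rose by 1.18 ± 0.21 (adjusted p = 0.00667), a call that held when centred (0.0357) and was lost without BL LRC 3 (0.0508). In both genes every BL LRC array lay above every BL non-LRC array. Ndufa4l2 read 6134, 6156 and 7772 against 2762, 3647 and 1669.6 units and rose by 1.38 ± 0.30 (adjusted p = 0.0254, 0.0976 when centred), and Higd1a rose by 0.63 ± 0.15 (adjusted p = 0.0424, 0.352 when centred). Higd1a lost its call whichever array was left out (highest 0.237), and Ndufa4l2 without any BL LRC array or without BL non-LRC 3 (0.147). Ldhb, the lactate dehydrogenase subunit that favours pyruvate, also named after its values were seen, read 749, 299 and 229.9 against 2833, 1943 and 5596 units and fell by 3.07 ± 0.38 (adjusted p = 0.000249).

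The mitochondrial lists lay slightly below 0 as a whole with almost no member passing. Of 70 oxidative phosphorylation genes measured, 66 had a negative difference, beside 8380 of 18193 over all genes. The list median was -0.26 (-0.50 when centred), and 1 fell, Ndufa4, a subunit of cytochrome c oxidase. Ndufa4 read 2865, 2946 and 2634 against 4191, 5192 and 5563 units and fell by 0.82 ± 0.14 (adjusted p = 0.00532). The tricarboxylic acid cycle list had a median of -0.29 and the mitochondrial ribosome list of -0.19, each with 0 called by limma, of 24 and 78 measured. In the oxidative phosphorylation, tricarboxylic acid cycle and mitochondrial ribosome lists 20, 8 and 18 members had an unadjusted p under 0.05, shares above the 11.1% of all genes.

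Proteins that bind insulin-like growth factors, and so set how much of the ligand reaches its receptor, moved in both directions. Igfbp3 read 5436, 3779 and 3858 units in BL LRC and 1165, 583 and 209.9 in BL non-LRC and rose by 3.04 ± 0.61 (adjusted p = 0.015). Igfbp7, a matrix-associated relative, read 1892, 1978 and 2055 against 850.0, 1153 and 484 units and rose by 1.34 ± 0.31 (adjusted p = 0.0364). In both genes the lowest value was that of BL non-LRC 3. Igfbp4 read 3035, 2719 and 3064 against 10135, 9922 and 17067 units and fell by 2.03 ± 0.28 (adjusted p = 0.000744), and Igfbp2 read 58.7, 23 and 76.1 against 558, 566 and 2148 units and fell by 4.23 ± 0.57 (adjusted p = 0.000489). The fractions did not overlap in any of the 4 genes. Grb14, an adaptor that inhibits the insulin receptor and was not above background in BL LRC, was at least 2.76-fold lower (adjusted p = 0.0115, 0.079 at most without 1 array and 0.499 with all probe sets averaged). The IGF, insulin and PI3 kinase list thus had 2 of 49 members higher and 3 lower, with a median of 0.007. The Igfbp4 and Igfbp2 calls held without any single array, with highest adjusted p-values of 0.00558 and 0.00369. Igfbp3 was lost without any BL LRC array or without BL non-LRC 3 (0.0896), and Igfbp7 without any BL LRC array, BL non-LRC 1 or BL non-LRC 3 (0.188), when centred (0.0762) and when all its probe sets were averaged (0.21). Without BL non-LRC 3, Igfbp3 rose by 2.38 and Igfbp2, whose BL LRC 2 value lay under background, fell by 3.59.

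Genes for ion and solute transport across the membrane supplied several more of the higher calls. Kcnj16, an inwardly rectifying potassium channel subunit, read 3572, 3603 and 3921 against 1239, 1718 and 784 units and rose by 1.64 ± 0.36 (adjusted p = 0.0254). Slc12a2, the sodium-potassium-chloride cotransporter, read 2302, 2694 and 2866 against 1259.5, 1906 and 1314 units and rose by 0.83 ± 0.17 (adjusted p = 0.0195). Wnk2, a kinase of the family that regulates this cotransporter, and the ammonium transporter Rhbg, both named after their values were seen, rose by 1.20 ± 0.29 and 1.27 ± 0.27 (adjusted p = 0.0498 and 0.023). Their fractions did not overlap, and none of these 4 calls held when centred (adjusted p = 0.0777 to 0.164). All 4 were lost too without BL LRC 2, BL LRC 3 or BL non-LRC 3, the highest adjusted p being 0.225 for Wnk2, and each without 1 or 2 of the other arrays. Wnk2 also missed the threshold with all its probe sets averaged (0.257). Of 66 ion channel and aquaporin genes, 2 rose and 2 fell. Aqp3, the water and glycerol channel of basal keratinocytes, read 1393, 1753 and 1164 against 5198, 4393 and 3838 units and fell by 1.65 ± 0.21 (adjusted p = 0.000247), and Kcnk1, a leak potassium channel not above background in BL LRC, was at least 15.1-fold lower (adjusted p = 0.0109, 0.0794 at most without 1 array, lost without BL LRC 2 or BL non-LRC 3).

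Receptors with higher values in BL LRC were few. Ccr4, a chemokine receptor known from T cells, read 604, 466 and 673 against 213, 173 and 79.5 units and rose by 2.00 ± 0.35 (adjusted p = 0.00559), with the call kept without any single array. The summed intensity of 8 T cell markers was 5289 to 8242 units in BL LRC and 4133 to 8113 in BL non-LRC, which overlap, and 0 of the 8 was called. Npr3, the clearance receptor for natriuretic peptides, and Rgs16, a negative regulator of G protein signalling, were not above background in BL non-LRC and were at least 5.88-fold and 4.3-fold higher (adjusted p = 0.0125 and 0.0185). Il20ra, a subunit of the receptor for interleukins of the IL-20 family, read 1130.4, 1896 and 1251 against 853, 497 and 370.1 units and rose by 1.37 ± 0.32 (adjusted p = 0.0397). Npr3 was lost without BL LRC 1, BL LRC 2 or BL non-LRC 3 (0.078), Rgs16 and Il20ra without any BL LRC array or without BL non-LRC 3 (0.0911 and 0.215), and Il20ra without BL non-LRC 2 too. Il20ra also missed the threshold when centred (0.103), and Rgs16 with all its probe sets averaged (0.202).

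Several transcription factors fell, most of them with calls that held without any single array. Irx1, an Iroquois homeobox factor, read 76.6, 103 and 42.2 units in BL LRC and 1311, 1047 and 1825 in BL non-LRC and fell by 4.29 ± 0.33 log2 units (adjusted p = 2.66e-06). Its relative Irx4 read 59.7, 73.8 and 48 against 352, 349.6 and 659.5 units and fell by 2.86 ± 0.44 (adjusted p = 0.00157). These were the 2 of 62 homeobox genes called, and for both every BL LRC value lay below every BL non-LRC value. Egr2, an early growth response factor induced by growth factors, read 675, 325 and 716 against 4765, 4449 and 6033 units and fell by 3.22 ± 0.25 (adjusted p = 2.66e-06). Egr3 read 198, 209 and 379 against 653, 472 and 2341 units and fell by 1.84 ± 0.43 (adjusted p = 0.0398), with most of its signal on BL non-LRC 3 and a call lost without that array, BL LRC 1 or BL LRC 2 (0.155) or with all probe sets averaged (0.0931). Without BL non-LRC 3 it fell by 1.15. Egr1, the most widely induced of the family, was at -0.72 ± 0.19 (adjusted p = 0.068, 0.012 when centred), and 2 of 41 immediate early genes fell in all. Cebpb, a factor of keratinocyte differentiation and fat storage named after its values were seen, read 996, 1048 and 1597 against 3074, 2387 and 5764 units and fell by 1.55 ± 0.26 (adjusted p = 0.00396).

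Some factors and surface proteins that mark or pattern the hair follicle fell: 9 of 36 measured bulge and follicle regulators were lower and none higher. The list median was only -0.10, with 14 members above 0 and 22 below. The inner root sheath and hair shaft list leaned the other way, with 0 of 26 measured members called by limma. Of them 22 lay above 0, beside 9813 of 18193 over all genes, and the median was 0.72 (0.48 when centred). An unadjusted p under 0.05 was reached by 7 of the 26, where 11.1% of all genes did. Sox9, a determinant of follicle stem cells, read 502, 617 and 551 against 1701, 2326 and 2973 units and fell by 2.04 ± 0.19 (adjusted p = 1.67e-05). Foxc1, which keeps bulge cells at rest, read 140.1, 321 and 201 against 1530.3, 1291 and 3281 units and fell by 3.16 ± 0.32 (adjusted p = 3.54e-05). The fractions did not overlap in these genes, nor did they in Runx1, a factor of follicle stem cell activation, which read 326, 282 and 340.1 against 1139, 1102 and 1401 units and fell by 1.94 ± 0.20 (adjusted p = 4.4e-05). Sox7 fell by 1.45 ± 0.18 (adjusted p = 0.000307), Gata6, a factor of the sebaceous duct, by 1.86 ± 0.33 (adjusted p = 0.00683), and Gli3, a Hedgehog effector, by 1.20 ± 0.29 (adjusted p = 0.0447). The vitamin D receptor gene Vdr read 1418, 1491 and 1421 against 2713, 1916 and 2574 units and fell by 0.72 ± 0.17 (adjusted p = 0.0385). Lrig1, the receptor antagonist that marks junctional zone stem cells, read 2584, 2669 and 2263 against 5914, 4849 and 6723 units and fell by 1.21 ± 0.17 (adjusted p = 0.000744), and Plet1, an isthmus marker, fell by 1.09 ± 0.20 (adjusted p = 0.00738).

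These calls depended on the probe set chosen for some genes. With all probe sets of a gene averaged, Sox9 had an adjusted p of 0.0925, Runx1 of 0.0653, Sox7 of 0.0828, Gata6 of 0.217 and Gli3 of 0.184, all still below 0, while Irx1, Irx4, Egr2 and Foxc1 kept their calls. Gli3 lost its call whichever array was left out (0.197), Vdr without any array but BL non-LRC 2 (0.161) and Plet1 without BL LRC 3 or BL non-LRC 3 (0.0537). The 8 infundibulum and isthmus markers summed to 16678 to 20373 units in BL LRC and 40289 to 51846 in BL non-LRC (6 of 8 lower). The 8 bulge markers summed to 4975 to 8107 and 10543 to 11257 units (2 of 8 lower, Cd34 never above background). Of these bulge markers 3 lay above 0 and 5 below, with a median difference of -0.16. The bulge sum holds the called Sox9 and Foxc1, and it does not show that the other bulge markers were lower. The part of follicle cells in the lower calls was not tested. Lrig1, Plet1 and Gata6 of the infundibulum and isthmus markers and Sox9 and Foxc1 of the bulge markers are among the lower genes described above. These sums are therefore no separate result.

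**Figure D3:**
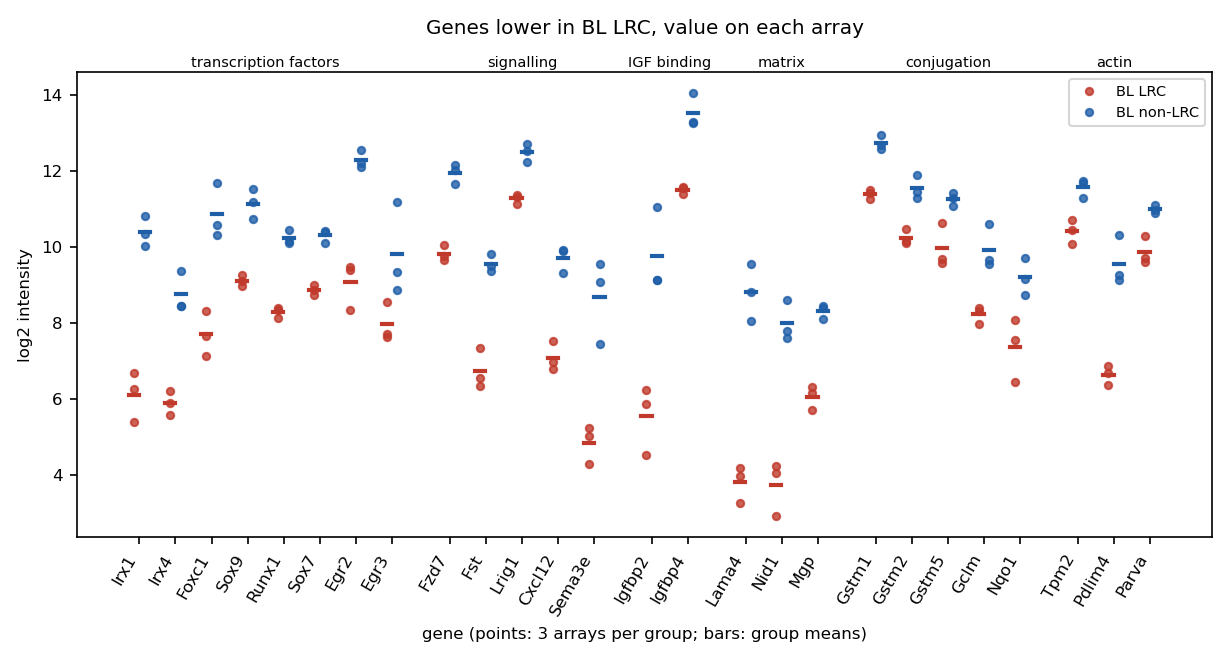
Log2 intensity on each of the 3 BL LRC (red) and 3 BL non-LRC (blue) arrays for genes called lower in BL LRC, grouped by role; short bars are group means. The blue points lie above the red ones in every gene shown. Lama4 and Nid1 lay under background on all 3 BL LRC arrays and have only bounds, and 1 red point each of Igfbp2 and Sema3e lay under background too.

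Ligands, receptors and antagonists of several signalling pathways fell as single genes while most members of each pathway did not pass. Fzd7, a Wnt receptor, read 1064, 813 and 871 units in BL LRC and 4176, 3256 and 4626 in BL non-LRC and fell by 2.13 ± 0.17 (adjusted p = 2.66e-06). It and the BMP and Wnt antagonist Sostdc1, which read 5660.0, 6125 and 6474 against 14399, 18258 and 14306 units and fell by 1.36 ± 0.13 (adjusted p = 3.54e-05), were the 2 of 72 Wnt genes called. In the BMP and TGF-beta list 4 of 57 members fell. Fst, the activin antagonist follistatin, read 81.8, 93.6 and 162 against 721, 667 and 908 units and fell by 2.82 ± 0.36 (adjusted p = 0.00031), and Inhbb, which codes for an activin subunit, fell by 1.91 ± 0.37 (adjusted p = 0.0119). Id4, a BMP-induced inhibitor of basic helix-loop-helix factors, and Ltbp3, which anchors latent TGF-beta, fell by 1.11 ± 0.24 and 0.73 ± 0.16 (adjusted p = 0.0252 and 0.0258), and with all probe sets averaged they had adjusted p-values of 0.769 and 0.46. Dusp4, a MAP kinase phosphatase not above background in BL LRC, was at least 10.3-fold lower (adjusted p = 0.00209). Inhbb was lost without BL LRC 1, BL LRC 3 or BL non-LRC 3 (0.077), Id4 without BL LRC 2, BL LRC 3 or BL non-LRC 1 (0.128) and Ltbp3 without BL LRC 2, BL LRC 3, BL non-LRC 2 or BL non-LRC 3 (0.156). Of 32 Notch genes 0 was called by limma and 5 had an unadjusted p under 0.05 (11.1% of all genes did), and the Notch median was 0.13 (-0.11 when centred).

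Among G protein coupled receptors and their regulators, 7 of 71 fell and 2 rose. Avpr1a, a vasopressin receptor, read 106, 6.59 and 119.9 against 2039.9, 1776 and 5970.2 units and fell by 5.99 ± 0.79 (adjusted p = 0.000395), and the related oxytocin receptor Oxtr read 30.3, 16.1 and 41 against 318, 122 and 431 units and fell by 3.23 ± 0.67 (adjusted p = 0.018). BL LRC 2 lay under its background floor for both genes and BL LRC 1 too for Oxtr, and the fractions did not overlap in either. With values raised to the floor, Avpr1a fell by 5.28 and Oxtr by 2.89. Avpr1a differed by -4.63 without BL LRC 2, and by -6.63 and -6.72 without BL LRC 1 and BL LRC 3. Rgs10 and Rgs20, which end G protein signals, read 292, 180.4 and 415 against 1269.5, 1623 and 1897 and 747, 543 and 1314 against 2759, 2121 and 3521 units, and fell by 2.49 ± 0.33 and 1.76 ± 0.26 (adjusted p = 0.000395 and 0.00129). P2rx7, the ATP-gated channel kept on this list, fell by 1.54 ± 0.30 (adjusted p = 0.0119). Rgs20 had an adjusted p of 0.1 when all its probe sets were averaged. Oxtr was lost without BL LRC 2, BL non-LRC 1 or BL non-LRC 3 (0.129) and P2rx7 without BL LRC 3 or BL non-LRC 3 (0.0863).

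Among chemokines and their receptors, 2 of 52 fell and 1 rose. Cxcl12, the chemokine ligand of CXCR4, read 109.8, 125 and 185 against 979, 642 and 961 units and fell by 2.63 ± 0.26 (adjusted p = 3.54e-05). Ccl2, which attracts monocytes, read 142, 48.1 and 37.5 against 624, 400.4 and 289.9 units and fell by 2.71 ± 0.63 (adjusted p = 0.0397), and Il7, a survival factor for lymphocytes, read 61.8, 37.3 and 48.7 against 174, 199 and 543 units and fell by 2.46 ± 0.51 (adjusted p = 0.0185). None of the 3 overlapped between fractions, and Cxcl12 alone of them kept its call without any single array (highest 0.000369). Ccl2 was lost without any array but BL LRC 1 (0.188) and Il7 without BL LRC 2, BL LRC 3 or BL non-LRC 3 (0.15). Axon guidance genes had 3 of 67 lower. Sema3e, a secreted semaphorin, read 37.8, 19.5 and 32.5 against 547, 174 and 752 units and fell by 3.85 ± 0.59 (adjusted p = 0.0016), with BL LRC 2 under background, and by 4.48 without BL non-LRC 2. Its co-receptor family member Nrp2 fell by 2.31 ± 0.56 (adjusted p = 0.0491) and the ephrin Efnb2 by 0.95 ± 0.22 (adjusted p = 0.0382). Nrp2 missed the threshold with the array-set term (0.0501), and both were lost without BL LRC 2, BL LRC 3 or BL non-LRC 3 (highest 0.27 and 0.145). Without BL non-LRC 3, Nrp2 fell by 1.71. Langerhans cell markers summed to 4795 to 5058 units in BL LRC and 6524 to 8159 in BL non-LRC, with 1 of 10 lower, Epcam, and the part of these cells in the chemokine values was not tested.

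Matrix and basement membrane genes had 3 of 38 members lower. Lama4, a laminin chain of vascular and follicular basement membranes, and Nid1, which links laminin to collagen IV, were not above background on any BL LRC array and read 449, 264 and 761 and 222, 194 and 387 units in BL non-LRC. They were at least 15-fold and 8.57-fold lower (adjusted p = 0.000249 and 0.00211), and Nid1 had an adjusted p of 0.197 with all probe sets averaged. Mgp, matrix Gla protein, read 79.7, 52.7 and 71.1 against 335, 348 and 277 units and fell by 2.25 ± 0.33 (adjusted p = 0.00122). Timp2 and Timp3, which inhibit matrix metalloproteinases, fell by 1.50 ± 0.33 and 0.81 ± 0.18 (adjusted p = 0.0289 and 0.0279), and Plat, tissue plasminogen activator, rose by 1.11 ± 0.24 (adjusted p = 0.0245, 0.124 when centred). All 3 were lost in 4 or 5 of the 6 fits without 1 array (highest 0.168, 0.126 and 0.13), and Timp3 and Plat with all probe sets averaged too (0.0549 and 0.0976). Fibroblast markers, among them Mgp, summed to 1242 to 1877 units in BL LRC and 2455 to 2882 in BL non-LRC, with Pdgfra and Lum never above background, and their part was not tested.

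Enzymes of glutathione conjugation and oxidant defence had 7 of 43 members lower and 1 higher. Gstm1, a mu class glutathione transferase, read 2928, 2764 and 2469 against 6199.6, 6592 and 7918 units and fell by 1.34 ± 0.15 (adjusted p = 9.44e-05). Gstm2 and Gstm5 fell by 1.31 ± 0.25 and 1.30 ± 0.23 (adjusted p = 0.0109 and 0.00552), and since these paralogues are alike in sequence, their probe sets may share signal. The shifts were alike in size and no fraction overlapped. Gclm, the regulatory subunit of the rate-limiting enzyme of glutathione synthesis, read 253, 322 and 336 against 748, 806 and 1567 units and fell by 1.70 ± 0.30 (adjusted p = 0.00524). Nqo1, a quinone reductase, read 272, 187 and 88 against 843, 427 and 577 units and fell by 1.85 ± 0.39 (adjusted p = 0.0192). Mgst1, which is also one of the sebocyte markers, read 169, 105 and 281 against 3904, 2913 and 10487 units (adjusted p = 3.54e-05), with its highest value on BL non-LRC 3. Gsta2, an alpha class transferase, was the member that rose, from 262, 396 and 115 units in BL non-LRC to 1037, 633 and 1132 in BL LRC, by 1.99 ± 0.48 (adjusted p = 0.0471, 0.0866 when centred, 0.0709 with all probe sets averaged), while its paralogue Gsta3 was at least 5.95-fold lower (adjusted p = 0.0438). Gstm2 was lost without BL LRC 2 or BL LRC 3 (0.0569), Nqo1 without these, BL non-LRC 1 or BL non-LRC 3 (0.101), and Gsta2 and Gsta3 in 5 of 6 fits each (0.228 and 0.262). The steroid and xenobiotic list, which also holds Nqo1, had 3 of 37 members lower and none higher. Its member Aldh3a1, an aldehyde dehydrogenase, read 1007, 748 and 1448 against 4422, 5017 and 6147 units and fell by 2.32 ± 0.23 (adjusted p = 3.54e-05).

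Some genes of lipid uptake, oxidation and signalling fell in BL LRC, as did most sebocyte markers. Of 36 PPAR target and fatty acid oxidation genes, 5 were lower and none higher, with a median of -0.36. Lpl, the lipase that frees fatty acids from lipoproteins, read 50.9, 83 and 64.6 against 946, 910.0 and 2788 units and fell by 4.37 ± 0.51 (adjusted p = 0.000138). Pdk4, which turns pyruvate away from oxidation, read 19.4, 22.4 and 37.2 against 344, 303 and 651 units and fell by 4.01 ± 0.48 (adjusted p = 0.000213). BL LRC 1 and BL LRC 2 lay under background for Pdk4, which fell by 3.61 with values raised to the floor. Lpl and Pdk4 lay above background on all 3 BL non-LRC arrays, with the highest value on BL non-LRC 3. Acot1, an acyl-CoA thioesterase, fell by 1.93 ± 0.31 (adjusted p = 0.00239) and Hadha, of the mitochondrial trifunctional protein, by 0.64 ± 0.15 (adjusted p = 0.043, lost without any array but BL non-LRC 2, 0.224). Among eicosanoid genes 4 of 35 fell and 1 rose. Hpgd, which inactivates prostaglandins, read 153, 109.6 and 138 against 667, 704 and 519.9 units and fell by 2.24 ± 0.33 (adjusted p = 0.00133), and Alox12e, an epidermal lipoxygenase, read 1123, 829 and 1684 against 4041, 2811 and 5565 units and fell by 1.78 ± 0.25 (adjusted p = 0.000754). Of 9 measured sebocyte markers, 7 were lower, and the markers summed to 7407 to 10290 units in BL LRC and to 18700, 20415 and 54768 in BL non-LRC 1, 2 and 3. Some sebaceous and infundibular genes count as lower in other lists too. They are Mgst1 (oxidant defence), Pparg (PPAR targets), Scd1 and Elovl3 (fatty acid synthesis), Mc5r (G protein coupled receptors) and Sostdc1 (Wnt), so these lists are not separate results. Without BL non-LRC 3, 11 of the 17 lower genes of the sebaceous and infundibular lists and 97 of the 206 other lower genes held their calls, and the part of sebaceous cells in the others was not tested.

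Genes of the actin cytoskeleton and of cell contacts were lower in a few members. Tpm2, a tropomyosin, read 1687, 1411 and 1091 against 3454, 2517 and 3317 units and fell by 1.16 ± 0.19 (adjusted p = 0.00305). Pdlim4, an actin-binding LIM protein, read 102, 83 and 116 against 614, 560.1 and 1269 units and fell by 2.93 ± 0.30 (adjusted p = 4.26e-05). Mylk, myosin light chain kinase, fell by 2.74 ± 0.58 (adjusted p = 0.0217, 0.268 with all probe sets averaged), with BL LRC 3 under background, and by 1.95 without that array. In total 4 of 67 actin genes fell and none rose, and arrector muscle markers summed to 213 to 285 units in BL LRC and 244 to 269 in BL non-LRC, with Des and Actg2 never above background. Parva, which links integrins to actin, read 1256, 783 and 841 against 2025, 1924 and 2212 units and fell by 1.13 ± 0.23 (adjusted p = 0.0147). It was the single member called of 33 integrin genes. Gjb2, a gap junction connexin with BL LRC 1 under background, fell by 1.94 ± 0.41 (adjusted p = 0.0212). Mylk, Parva and Gjb2 each lost their calls in 3 of the 6 fits without 1 array, both BL LRC 3 and BL non-LRC 3 being among these for each gene (highest 0.11, 0.088 and 0.122).

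Of 58 mitosis genes 5 fell (Ube2c, Cdc20, Ccnb2, Cdca3 and Cks2), the median difference was -0.82 and 53 lay below 0, beside 8380 of 18193 over all genes. An unadjusted p under 0.05 was reached by 31 of the 58, a share above the 11.1% of all genes. The Ube2c call held without any single array (highest adjusted p = 0.0223), while Cdc20 and Ccnb2 lost theirs in 5 of the 6 fits (0.201 and 0.22) and Cdca3 and Cks2 in 4 (0.103 and 0.0642), BL LRC 2 and BL non-LRC 3 being among the arrays left out for each. Of 47 replication genes 0 was called by limma, with a median of 0.013 and 1 at an unadjusted p under 0.05, a share below the 11.1% of all genes. Mki67, present in all cycling cells, read 2299.8, 1795 and 2026 against 3314, 3162 and 4578 units (adjusted p = 0.0559, 0.00709 when centred), and Top2a read 376, 407 and 487 against 725, 752 and 1017 units (adjusted p = 0.146, 0.0328 when centred). Their values did not overlap although neither passed. Of 37 cell cycle inhibitor and quiescence genes 0 was called by limma and 8 had an unadjusted p under 0.05, a share above the 11.1% of all genes. The inhibitor Cdkn1a read 3739, 2899 and 3359 against 2866, 2619 and 2215 units (0.38 ± 0.16, adjusted p = 0.37), and Cdkn1b read 3709.8, 2926 and 2794 against 3659, 3908 and 3679 units (-0.26 ± 0.14, adjusted p = 0.515), with overlap in Cdkn1b. Cdkn1c was not above background on any basal array. H2ax and Macroh2a2, which code for histone variants, fell by 1.13 ± 0.26 and 2.23 ± 0.44 (adjusted p = 0.0397 and 0.0139), calls lost in 5 and 4 of the 6 fits without 1 array (highest 0.22 and 0.0873).

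Other programmes had no member called: p53 targets (31 measured, median 0.086), the unfolded protein response (31, 0.003), cytosolic ribosomal proteins (44, 0.12, with the mitochondrial Mrpl23 among them through a synonym), cholesterol synthesis (21, -0.43) and the circadian clock (22, 0.31). At an unadjusted p under 0.05 these lists held 4, 2, 2, 8 and 6 members, where the share over all genes was 11.1%. Cholesterol synthesis, with 18 of 21 members below 0, and the clock, with 18 of 22 above 0, lay well above that share. Over all genes the median was 0.046, and centring lowers every median by the same 0.24 log2 units, so the sign of the first 3 medians, which lie between 0 and that shift, depends on the scaling. Of the study's own markers, Dlx1 read 169, 177 and 98.5 against 50.7, 101 and 36.7 units (adjusted p = 0.543) and Slc1a3 166, 314 and 75.8 against 185, 333 and 435 (adjusted p = 0.612), with overlapping fractions in both.

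**Figure D4:**
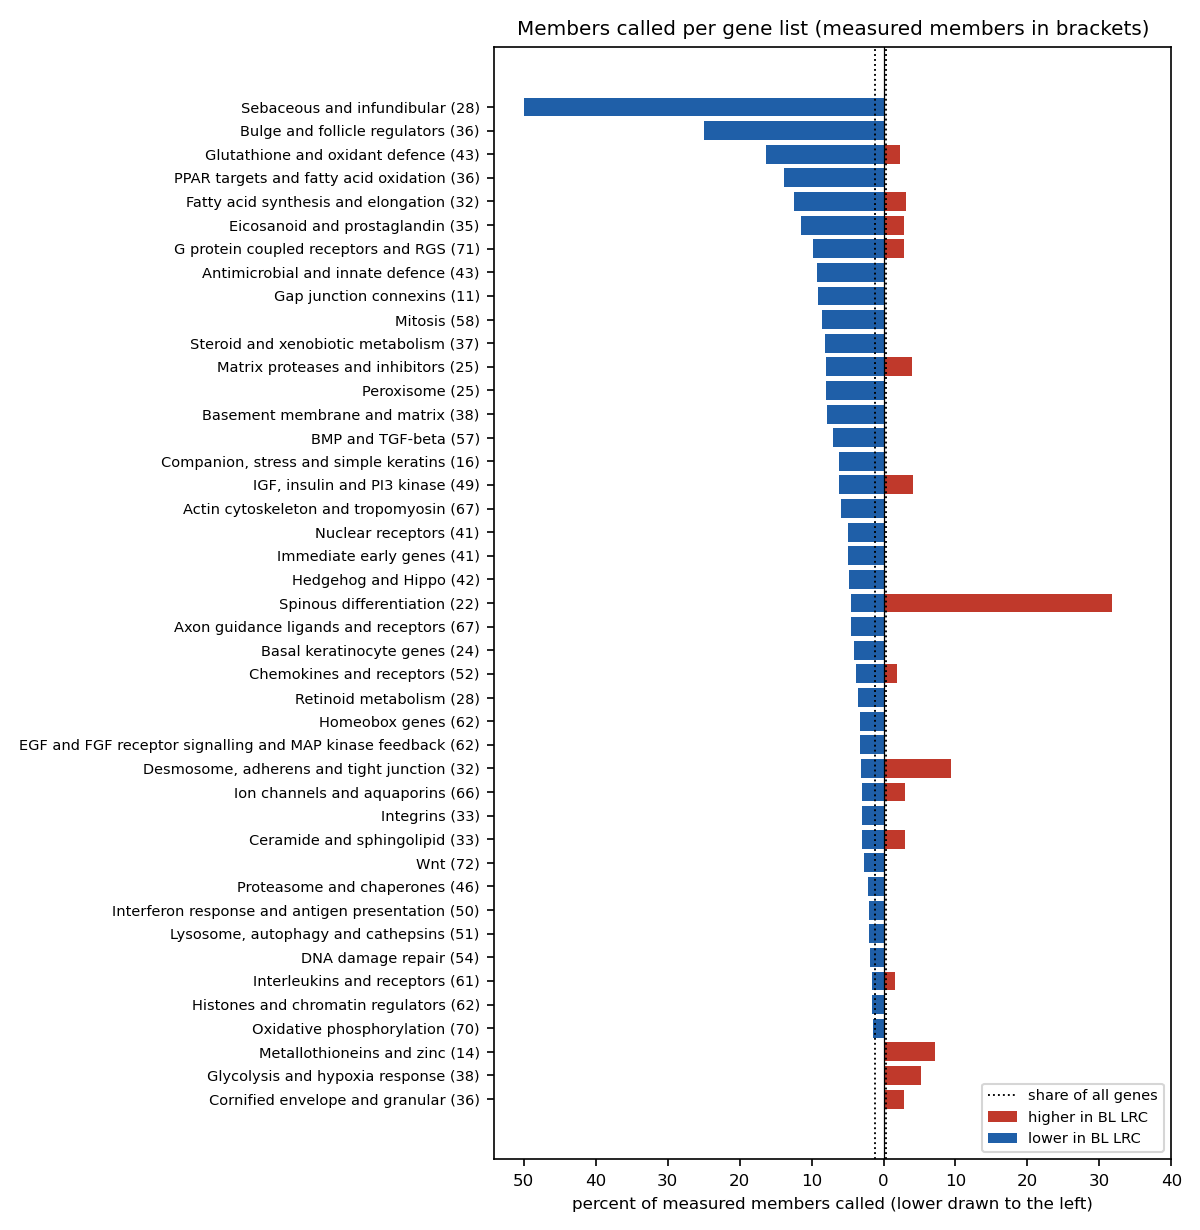
Percent of the measured members of each gene list called higher (red, to the right) or lower (blue, to the left) in BL LRC, with the number measured in brackets; dotted lines mark the shares over all genes, 0.308% and 1.23%. The sebaceous and infundibular list reaches 50% lower and the spinous list 31.8% higher, and lists with no member called are left out.

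The same label comparison in the spinous fraction used 4 other arrays and a smaller n of 2 and 2. There 1.49% of all genes were higher and 2.70% lower in LRC, and of the basal calls 34 of 56 higher genes were also higher and 155 of 223 lower genes also lower, with none called the opposite way. Irx1 differed by -4.08 ± 0.41 in SL (adjusted p = 7.09e-05), Igfbp3 by 4.77 ± 0.75 (0.00153) and Pla2g4f by 2.83 ± 0.32 (0.000118). By contrast Sostdc1 differed by -0.29 ± 0.16 (0.41) and Rgs16, under background on SL LRC 1, by -1.03 ± 0.74 (0.546). In SL the label groups coincide with the 2 array sets, and the label and the array set cannot be told apart there. The test of the difference between layers called 0 of 18193 genes by limma, with 1291 at an unadjusted p under 0.05. The smallest adjusted p was 0.0948, for Tpm2, which fell by 1.16 ± 0.19 in BL and by 3.13 ± 0.23 in SL, and for Sostdc1 it was 0.184.

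**Figure D5:**
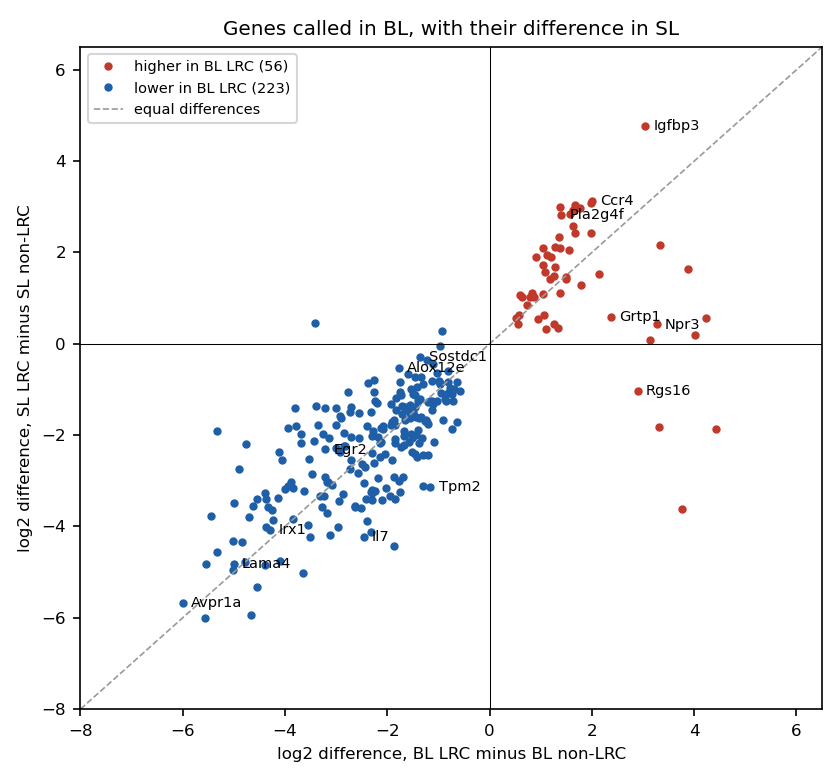
Log2 difference between LRC and non-LRC in SL (vertical axis) against that in BL (horizontal axis) for the 279 genes called in BL, red where higher and blue where lower in BL LRC; the dashed line marks equal differences. Rgs16 and Sostdc1 lie away from the line, while Irx1 and Lama4 lie near it, genes under background being drawn at their measured values.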

How the data were processed

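Sorted basal fractions (3 BL LRC and 3 BL non-LRC arrays) were read beside the 6 other arrays of the series. The labels give RNA extraction with a Qiagen micro kit and amplification and labelling of cDNA with NuGEN kits. The deposited values are linear intensity values, which the authors had scaled so that each array's 2% trimmed mean is 500, as recomputed from the files; the summarisation software is not given in the sources used here, and scanner files were not used here. Per the labels, no step of background correction is stated. Here log2 was taken with nothing added, although the design had assumed log2 values. Amplification of small RNA amounts and scaling to a mean both bear on dim genes and on small shifts.

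Of 45101 probe sets, 34945 name 1 gene in the platform annotation, 932 several and 9160 none. Where a gene had more than 1 (9010 genes), the brightest on average over the 12 arrays was kept. This gave 18193 genes, of which 1543 rest on a probe set whose suffix marks possible cross-hybridisation. A background floor per array was the 95th percentile of 27 bacterial probe sets, 22.4 to 42.6 units. Where the dimmer group was never above it, the fold is a lower bound ("at least"): the brighter group's mean against the higher of floor and own value per array. Precision is limited by the number of arrays.

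limma 3.58.1 in R 4.3.3 fitted 5 group means over 12 arrays with a mean-variance trend, and p-values were Benjamini-Hochberg adjusted over 18193 genes at 0.05. Differences are BL LRC minus BL non-LRC in log2 units with moderated standard errors. The fit was tested on simulated data first. Tables and figures used Python 3.11.15, pandas 2.3.3 and matplotlib 3.10.9.

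Members and lists were chosen with earlier results of these data known. The 59 programme and 13 marker lists (2311 genes measured, 226 entries not measured, 27 symbols matched through RefSeq synonyms) came from general knowledge, and 157 called genes are in none. Among the synonym matches, Gpi1 became Pigq in the glycolysis list and Rpl23 became Mrpl23 in the cytosolic ribosomal list. Both are other genes than those meant and were left in the counts. Named genes were drawn from the 25 largest non-overlapping differences per direction with the brighter group above background, the called members and up to 4 members of smallest p of each list described, and a set of basal, differentiation, cycle and study markers. Genes outside this are said to be named after their values were seen. Alternatives tried were scaling, offset, floor, filter, probe set choice, arrays fitted, trend, replicate block, array-set term and leaving out each basal array. Centring on the median of the genes tested was added after seeing the data. Promoter sequences are RefSeq GRCm38.p6 entries, and Ndufa4l2 was not matched there.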

Additional observations from a re-analysis of the deposited data

How the results depend on the processing

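The counts of 56 higher and 223 lower genes depended on the model and on single arrays. Centring on all probe sets gave 22 and 424, a fit without the trend 15 and 57, the 6 basal arrays alone 33 and 150, and basal replicates 2 and 3 alone 19 and 155. Without 1 basal array the counts ran from 10 to 67 higher (10 without BL LRC replicate 3) and from 108 to 221 lower (108 without BL non-LRC replicate 3). Quantile normalisation (60 and 207), an offset of 16 (48 and 220), the floor (73 and 270), the filter (56 and 233), mean probe sets (66 and 189), no cross-hybridising probe sets (54 and 224), the array-set term (78 and 255) and gene-median centring (51 and 217) moved neither count by over 1.5 times. The cause of these moves was not tested. A replicate block gave 82 and 280. Deviations of same-numbered basal arrays correlated at 0.13, 0.073 and 0.080, each the highest for its array. This is a hint of pairing at most, since the labels state no shared source for these numbers, and the main fit does not pair arrays. The difference between layers, 0 genes, became 4 with the floor, 2 with mean probe sets, 2 without the trend, 4 with the block, 5 with the array-set term and 0 to 6 without 1 array. Signs turned for Krt5 (-0.0034), Krt14 (-0.14), Krt15 (-0.059) and Itga6 (-0.23) when centred on all probe sets, for Krt14 (-0.048) and Itga6 (-0.00077) after quantile normalisation, and for Itga6 without BL LRC replicate 2 (-0.041), BL non-LRC replicate 1 (-0.022) or BL non-LRC replicate 3 (-0.075). Genes under the background floor carry only bounds, which limits what dim genes can show.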
